A study of Rattus norvegicus with 12 samples.

Results

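The effect of the diet eaten after weaning was examined in the hearts of rats whose mothers had gestational diabetes mellitus (GDM). All 6 libraries that the labels give as GDM-High Fat and Sucrose (GDM-HFS, 3 libraries) or GDM-Low Fat (GDM-LF, 3 libraries) were used, of 12 in the study, and every gene model of the deposited table was considered. In both groups the dam was a Sprague-Dawley rat, an outbred laboratory stock, that was fed a high-fat, high-sucrose diet (HFS) starting ahead of mating and up to the end of lactation, which is how GDM was induced. The offspring were weaned at 3 weeks and placed at random on the same HFS diet (GDM-HFS) or on a low fat diet (GDM-LF), and whole hearts were taken at 15 weeks. The exposure before weaning is therefore shared, and the groups differ in the diet of the offspring. The remaining 6 libraries are from offspring of Lean dams, which ate the low fat diet, again weaned onto LF (Lean-LF, 3) or HFS (Lean-HFS, 3). According to the design text, 6 animals per group were planned. Each library's title has its own number, but neither litter nor sex is labelled, so the p-values measure only the spread between samples, which for limma is pooled over all 12 libraries, and littermates may be among them.

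The adult heart makes most of its ATP by burning fatty acids, with glucose, lactate and ketone bodies as the other fuels. Fatty acids that enter the cardiomyocyte activate PPAR nuclear receptors, which raise genes of fatty acid uptake, oxidation and storage and restrain glucose use. All of these fuels end in the mitochondrial respiratory chain, whose subunits are encoded mostly in the nucleus. A whole heart also holds endothelial cells, fibroblasts, smooth muscle, macrophages, nerve, attached fat and both atria and ventricles, and bulk RNA adds them together.

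Values are reads of a gene model, normalised to the library by the authors and then divided here by a scaling factor per library; they are called scaled normalised reads and are not divided by gene length. Reads outside ribosomal RNA models numbered 10418380 to 14418970 in these 6 libraries, with means of 12967900 in GDM-HFS and 12087600 in GDM-LF (two-sided exact permutation p = 0.5, where 3 against 3 cannot go below 0.1). Cardiomyocyte markers were abundant in every library, such as Myh6, the main myosin of rodent heart, at 102567, 81936 and 69437 in GDM-LF and 68762, 85162 and 91476 in GDM-HFS, and the summed level of the cardiomyocyte genes, 19 with a model of 20 listed, was 255207 to 314210.0 in GDM-LF and 236532 to 284016 in GDM-HFS. Libraries stood apart in genes of other tissue parts. Atrial genes were lowest in GDM-LF 1 and highest in GDM-HFS 1 and GDM-LF 3, and white adipocyte genes were highest in GDM-HFS 3, followed by GDM-LF 3. On the first principal component over all 12 libraries (14.6% of the variance) GDM-LF 3, at 28.4, lay among the GDM-HFS libraries (21.1 to 38.1), whereas GDM-LF 1 and 2 lay at -25.2 and -8.10.

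No gene passed the test between GDM-HFS and GDM-LF hearts. Of 12983 genes tested with limma, 0 (0%) had a Benjamini-Hochberg adjusted p under 0.05, and 723 (5.57%) had an unadjusted p under 0.05. Of these, 373 (2.87% of genes tested) were higher in GDM-HFS and 350 (2.7%) lower. With values as deposited, which moved the median of all genes from 0.0054 to 0.10 on the log2 scale, that split was 522 higher and 100 lower. In 728 genes (5.61%) every GDM-HFS library lay above every GDM-LF library, and in 747 (5.75%) every one lay below. The count tests on recovered reads called 0 genes with edgeR (723 at unadjusted p under 0.05) and 9 of 7947 (0.113%) with DESeq2 (705, or 5.43%, at unadjusted p under 0.05). Without GDM-LF 3 the number of genes at an unadjusted limma p under 0.05 was 747 higher and 548 lower, and without GDM-LF 2 it was 247 higher and 226 lower.

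The gene with the smallest p was Tmem179, which encodes a transmembrane protein and lies at chr6:137073684-137084739 (Rnor_6.0, minus strand). Its values were 409, 373 and 319 in GDM-LF and 238, 207 and 204 in GDM-HFS. Every GDM-HFS library lay below every GDM-LF library, with the nearest pair 238 and 319. The log2 difference, GDM-HFS minus GDM-LF with its standard error, was -0.76 ± 0.11 (limma, adjusted p = 0.129), so it did not pass. DESeq2 called it (adjusted p = 6.7e-06), as did limma with replicate number as a block (adjusted p = 0.028) and without Lean-HFS 1 (adjusted p = 0.0404). In offspring of Lean dams the same diet contrast gave 0.0017 ± 0.11. The difference between the contrasts (interaction) was -0.76 ± 0.16 (limma unadjusted p = 0.000292, adjusted p = 0.999), the smallest interaction p among genes named here. Tmem179 was picked for its contrast in GDM offspring, which the interaction contains, so this unadjusted p is not independent of the choice.

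**Figure D1:**
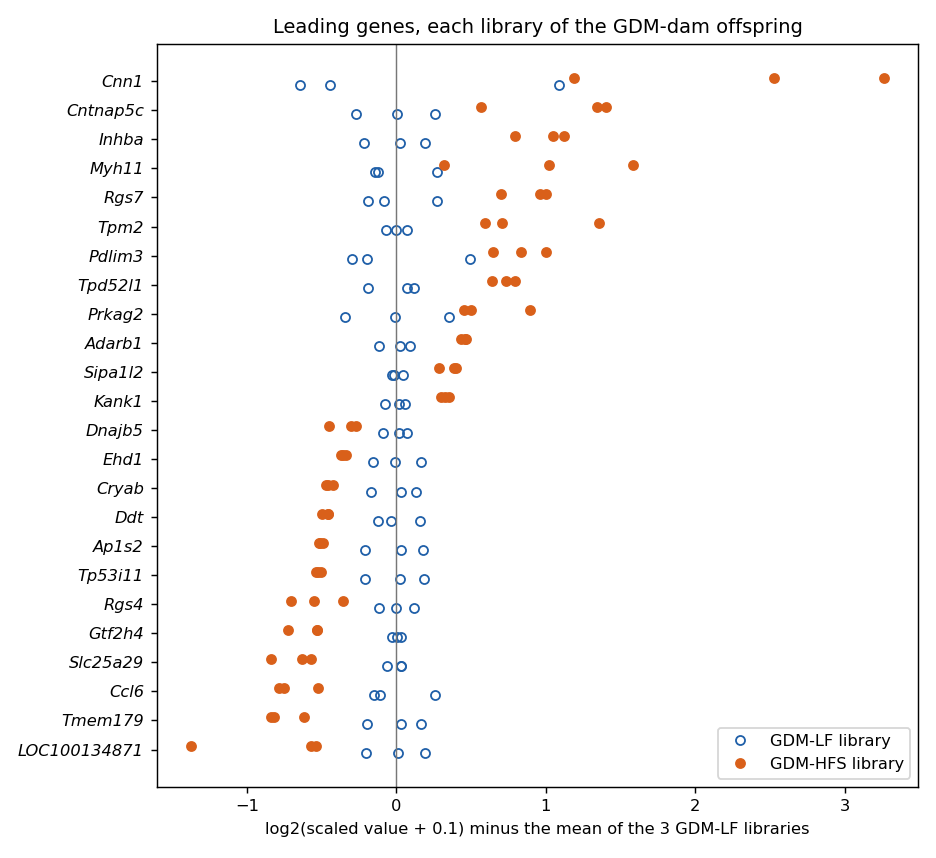
Each row is 1 gene, the x axis is log2(scaled normalised reads + 0.1) minus the mean of the GDM-LF libraries, open blue circles are the 3 GDM-LF libraries and filled orange circles the 3 GDM-HFS libraries. The 12 genes per direction were chosen for small p and for groups that do not overlap, so that separation is how they were picked; Tmem179 is -0.76 and Cnn1 2.32, and the spread within Cnn1 is the widest.

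Besides Tmem179, the genes with the smallest p that were lower in GDM-HFS included stress and metabolic genes of muscle. Cryab encodes the small heat shock protein alphaB-crystallin, which guards desmin and titin in the sarcomere. Its values were 5512, 5909 and 4793 in GDM-LF and 3892, 3915 and 4005 in GDM-HFS, a log2 difference of -0.45 ± 0.10 (limma unadjusted p = 0.000529). The GDM-HFS libraries were nearly level and lay below all GDM-LF libraries, and DESeq2 called the gene (adjusted p = 0.00096). Slc25a29, a mitochondrial carrier of basic amino acids, stood at 36.4, 36.4 and 34.1 in GDM-LF and 23.9, 19.9 and 22.95 in GDM-HFS. Its difference was -0.68 ± 0.14, next to -0.70 ± 0.14 in offspring of Lean dams, and it was low in all HFS libraries of both kinds of dam. Rgs4, which shortens signalling by G proteins of the Gq and Gi classes, stood at 116, 127 and 108 in GDM-LF and 90.9, 79.7 and 71.6 in GDM-HFS, without overlap (-0.54 ± 0.12).

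Tp53i11, a target of p53, stood at 138, 155 and 118 in GDM-LF and 95.9, 94.3 and 93.5 in GDM-HFS; its difference was -0.52 ± 0.10, and -0.07 ± 0.10 in offspring of Lean dams. Ddt, a relative of the cytokine MIF, was at 110.3, 96.2 and 90.4 in GDM-LF and 71.8, 69.95 and 71.8 in GDM-HFS (-0.47 ± 0.10). Ap1s2, a subunit of the clathrin adaptor AP-1, differed by -0.51 ± 0.12, and Ehd1, which recycles membrane receptors from endosomes, by -0.35 ± 0.09. The chemokine Ccl6 differed by -0.69 ± 0.18, the DNA repair and transcription factor subunit Gtf2h4 by -0.60 ± 0.15, and the co-chaperone Dnajb5 by -0.34 ± 0.09. The twelfth gene, LOC100134871, carries the symbol Hbbl1 in RefSeq and belongs to the beta-globins of red cells. It was at 486, 370.2 and 429 in GDM-LF and 286, 164 and 293 in GDM-HFS (-0.83 ± 0.21), lowest in GDM-HFS 2, the library that is also lowest in Hbb, described below with the erythroid transcripts. All of these were separated by group, which the choice required. On Rnor_6.0, Cryab lies at chr8:55178543-55182546, Slc25a29 at chr6:132736974-132747762, Rgs4 at chr13:88054817-88061108 and Ddt at chr20:13827156-13829624; each position is the span of the whole gene model.

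The 12 leading genes that were higher in GDM-HFS include the smooth muscle genes Cnn1 and Myh11, described below, and Tpm2 and Pdlim3. Tpm2 encodes beta-tropomyosin, which lies along actin filaments, and stood at 66.6, 69.9 and 63.6 in GDM-LF and 101, 109 and 171 in GDM-HFS. All GDM-HFS libraries lay above all GDM-LF libraries, GDM-HFS 3 highest (0.89 ± 0.20, limma unadjusted p = 0.000631). Pdlim3, a Z-disc protein that binds alpha-actinin, was at 396, 368 and 636 in GDM-LF and 906, 806 and 708 in GDM-HFS (0.83 ± 0.21). GDM-LF 3 lay nearer to the GDM-HFS libraries than GDM-LF 1 and 2 did.

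Adarb1, which edits adenosine to inosine in double-stranded RNA, gave the smallest p among higher genes. It stood at 190.2, 209 and 219 in GDM-LF and 284, 283 and 278 in GDM-HFS, with the GDM-HFS libraries almost level (0.45 ± 0.09, limma unadjusted p = 0.000217; 0.31 ± 0.09 in offspring of Lean dams). Rgs7, a regulator of G protein signalling of the R7 family, stood at 35.5, 25.8 and 27.8 in GDM-LF and 47.9, 58.8 and 57.4 in GDM-HFS (0.89 ± 0.19). DESeq2 called both, with adjusted p = 0.0151 and 0.0166. Prkag2 encodes the gamma-2 subunit of AMP-activated protein kinase, the energy sensor, and was at 111, 140.1 and 179.8 in GDM-LF and 262, 193 and 199 in GDM-HFS (0.61 ± 0.16). Inhba, the activin A subunit, was low throughout at 6.801, 9.04 and 8.06 in GDM-LF and 13.8, 17.3 and 16.5 in GDM-HFS (0.99 ± 0.25). The actin regulator Kank1 differed by 0.33 ± 0.08, Sipa1l2 by 0.36 ± 0.09, Tpd52l1 by 0.72 ± 0.19 and the neurexin relative Cntnap5c by 1.10 ± 0.28. Adarb1 lies at chr20:11972381-12101022, Rgs7 at chr13:93095659-93535604, Tpm2 at chr5:59016621-59025631, Myh11 at chr10:764421-859184 and Cnn1 at chr8:23113086-23121748.

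Nuclear genes of the respiratory chain lay mostly on 1 side: nearly all subunits were a little lower in GDM-HFS hearts, though none passed the test. Of the 37 listed nuclear subunits of complex I, which takes electrons from NADH, 32 were tested and all 32 had a negative difference, where 48.7% of all genes did. Their median was -0.19, against 0.0054 over all genes, and they ranged from -0.35 to -0.03. Of the 32, 6 were lower at an unadjusted p under 0.05 and in 12 the libraries did not overlap, where 2.7% and 5.75% of all genes were lower in these ways. The leading members were Ndufb2 at 171, 147 and 157 in GDM-LF and 119, 117 and 137 in GDM-HFS (-0.35 ± 0.12), Ndufa6 at 281, 263 and 239 in GDM-LF and 187, 201 and 238 in GDM-HFS (-0.33 ± 0.11) and Ndufb4 at 476, 432 and 394 in GDM-LF and 363, 347 and 345 in GDM-HFS (-0.30 ± 0.11). In each of these 3 genes all GDM-HFS libraries were below all GDM-LF libraries.

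Complexes II to V, which pass electrons on to oxygen and make ATP, gave 44 tested genes; of the genes listed, some under both an old and a current symbol, Cox7a1 had no model. Of these 44, 43 were negative, 13 lower at an unadjusted p under 0.05 and 18 without overlap (2.7% and 5.75% of all genes), with a median of -0.20. Cox6a2, the heart and muscle form of a cytochrome c oxidase subunit, stood at 3487, 2827 and 2258 in GDM-LF and 1786, 1842 and 1799 in GDM-HFS. The GDM-HFS libraries were nearly level, all below GDM-LF, while GDM-LF ran over a wide range (-0.64 ± 0.17, limma unadjusted p = 0.00221). Uqcrb of complex III was at 433, 393 and 357 in GDM-LF and 311, 339 and 304 in GDM-HFS (-0.31 ± 0.09), and Atp5pf of the ATP synthase stalk at 848, 779.5 and 731 in GDM-LF and 662, 576 and 613 in GDM-HFS (-0.35 ± 0.10), both separated by group.

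The same direction was present in offspring of Lean dams, whose libraries are other animals. There all 32 complex I genes were again negative, where 48.9% of all genes were, with a median of -0.22, and 42 of 44 genes of complexes II to V, with a median of -0.19. Of complex I, 11 genes were lower at an unadjusted limma p under 0.05 in that contrast, where 2.56% of all genes were. Lean-HFS 2 carried much of this difference: its complex I score was -0.32, against 0.11 and 0.05 in Lean-HFS 1 and 3 and 0.16 to 0.19 in Lean-LF, as medians over members on the log2 scale relative to the mean of the 6 GDM libraries. That library also stood apart in cardiomyocyte (-0.32), fibroblast (0.72) and macrophage (0.93) scores, and their part was not tested. Without Lean-HFS 2 the Lean median was -0.087 for complex I, with 28 of 32 genes negative and 0 at an unadjusted p under 0.05, and -0.064 for complexes II to V, with 39 of 44 negative. No member of either list had an unadjusted interaction p under 0.05, where 3.01% of all genes did (179 higher, 1.38%, and 212 lower, 1.63%). The median over members in each library, relative to the 6-library mean on the log2 scale, was 0.21, 0.11 and -0.04 in GDM-LF and -0.21, -0.07 and 0.002 in GDM-HFS for complex I. GDM-LF 3 lay between GDM-HFS 2 and 3, so the groups overlap in this summary. For complexes II to V it was 0.22, 0.12 and -0.02 in GDM-LF and -0.20, -0.06 and -0.03 in GDM-HFS; here GDM-LF 3 was just above GDM-HFS 3. With values as deposited the medians were -0.10 and -0.11, against 0.10 over all genes.

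**Figure D2:**
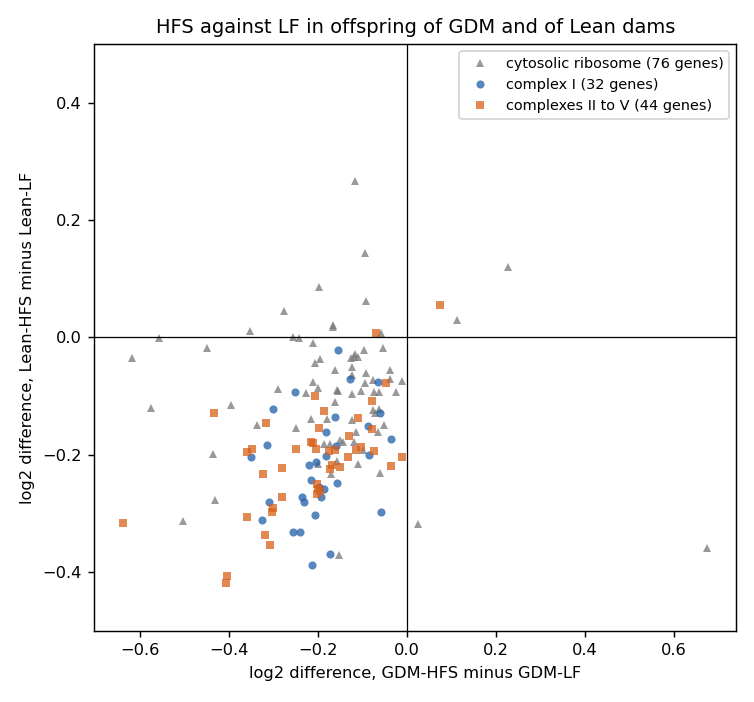
Each point is 1 tested gene of the nuclear respiratory chain (circles complex I, squares complexes II to V) or of the cytosolic ribosome (triangles), with its log2 difference between HFS and LF in offspring of GDM dams on the x axis and of Lean dams on the y axis. All 32 complex I genes lie at the lower left, where both differences are negative.

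Cardiomyocyte markers, which share this tissue source, were also mostly lower: 16 of 19 tested had a negative difference, with a median of -0.16. Fewer cells of a type and less RNA per cell cannot be told apart in bulk tissue. The library scores of this list, 0.13, 0.09 and -0.04 in GDM-LF and -0.26, -0.03 and 0.02 in GDM-HFS, were lowest in GDM-HFS 1, as were those of complex I; their part in the respiratory chain result was not tested. Actc1, cardiac actin, was at 29212, 33670.2 and 27214 in GDM-LF and 22403, 26738 and 26809.8 in GDM-HFS (-0.25 ± 0.17), Mb, the oxygen store myoglobin, at 25027, 23705 and 19359 in GDM-LF and 15333, 20975 and 22349 in GDM-HFS (-0.23 ± 0.18), and Atp2a2, the calcium pump of the sarcoplasmic reticulum, at 40264, 38753 and 37314 in GDM-LF and 37553, 37042 and 39505 in GDM-HFS (-0.03 ± 0.20). Only Actc1 of these 3 was free of overlap between the groups.

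Promoter sequences of complex I genes are shown because nuclear respiratory genes are known targets of the transcription factor NRF1. The core GCATGCGC was searched on both strands (also as GCGCATGC; the matches may overlap each other) in RefSeq promoter windows of GRCr8, which run from 250 bases before to 50 bases after a start site. It occurred in 2.47% of 33469 windows. Counted by gene instead of by window, it occurred in 2 of 31 complex I genes and in 7 of 36 genes of complexes II to V (Atp5mc2, Atp5me, Atp5mg, Atp5po, Cycs, Sdhb and Uqcrc1). A match is a stretch of letters and was not tested as a site. The stretches below, 90 bases each and 5′ to 3′ in the direction of the gene, are chr7:115750373-115750462 (minus strand) for Ndufa6 and chr9:1637480-1637569 (plus strand) for Ndufa11, with the core in capitals.
Ndufa6: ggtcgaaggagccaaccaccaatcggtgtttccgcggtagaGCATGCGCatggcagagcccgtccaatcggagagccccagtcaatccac
Ndufa11: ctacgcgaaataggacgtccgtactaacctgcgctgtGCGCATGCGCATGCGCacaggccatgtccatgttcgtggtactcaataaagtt
In Ndufa11 the matches overlap into 1 run of capitals. Ndufa6, lower by -0.33 in GDM-HFS and by -0.31 in Lean-HFS, has 1 match.

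Ribosomal protein genes were also lower by small amounts, none past the adjusted threshold. Of 76 tested genes of the cytosolic ribosome, which translates most proteins, 72 had a negative difference. At an unadjusted p under 0.05, 17 were lower, and 28 were lower without overlap between the groups. The shares of all genes in these 3 classes were 48.7%, 2.7% and 5.75%. The median was -0.13, in a range of -0.62 to 0.67, and -0.09 in offspring of Lean dams. Rpl34 was at 222, 173 and 185 in GDM-LF and 137, 135 and 157 in GDM-HFS (-0.43 ± 0.12), Rpl36a at 94.97, 74.04 and 74.3 in GDM-LF and 63.3, 59.4 and 55.9 in GDM-HFS (-0.44 ± 0.12) and Rps29 at 413, 329.7 and 343 in GDM-LF and 287, 227 and 199 in GDM-HFS (-0.62 ± 0.19). All 3 were separated by group, and Rps29 differed little by diet in offspring of Lean dams (-0.04, interaction -0.58 ± 0.27, limma unadjusted p = 0.0466). With values as deposited the median was -0.040, against 0.10 over all genes. Ribosomal protein genes have many near-identical pseudogenes, so how reads were assigned bears on their values. Of 70 tested mitochondrial ribosome genes, which serve translation inside the organelle, 59 were negative, with a median of -0.12. At an unadjusted p under 0.05, 5 were lower (2.7% of all genes), led by Mrpl22 at 62.9, 57.5 and 57.98 in GDM-LF and 42.6, 42.5 and 49.7 in GDM-HFS (-0.41 ± 0.12).

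**Figure D3:**
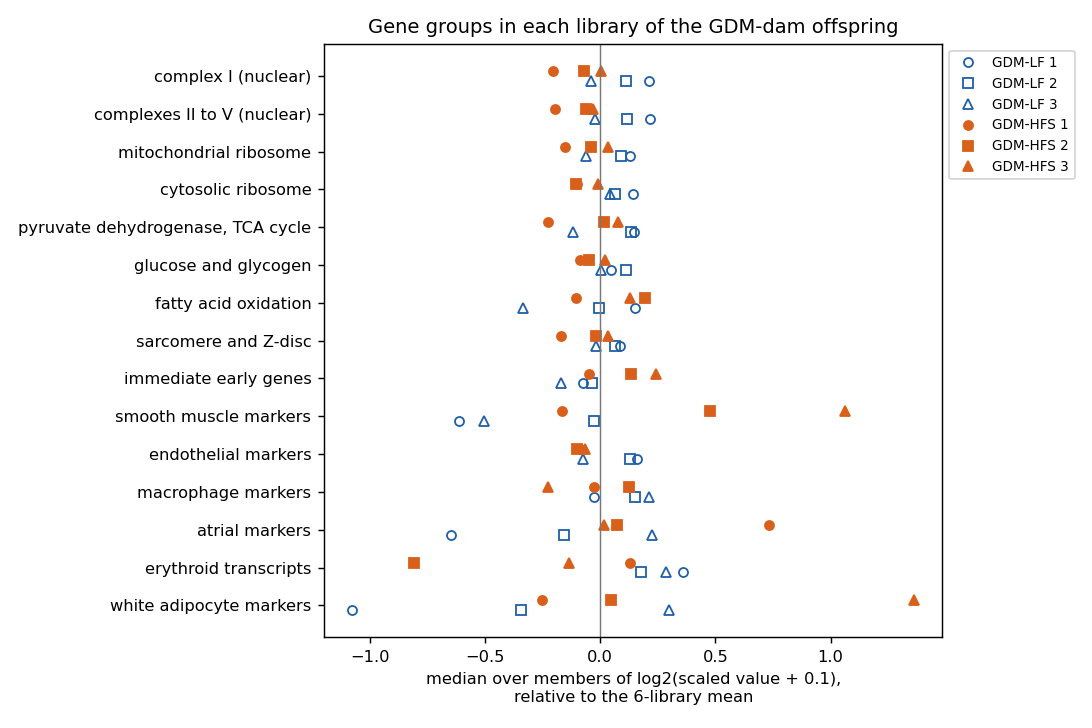
Each row is a gene group and each symbol 1 library (open blue GDM-LF, filled orange GDM-HFS, with shape for the replicate number); the x axis is the median over tested members of log2(scaled normalised reads + 0.1) relative to the mean of the 6 libraries. The 3 GDM-LF libraries lie above the 3 GDM-HFS libraries for the cytosolic ribosome, and adipocyte, atrial and smooth muscle markers spread over the widest range.

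Fuel genes differed by small amounts and not all in 1 direction. Fatty acid oxidation genes had a median of 0.14, with 28 of 32 higher in GDM-HFS and 1 at an unadjusted p under 0.05, where 51.3% and 2.87% of all genes were. That gene was Decr1, the auxiliary enzyme for unsaturated fatty acids, at 471, 352 and 305 in GDM-LF and 474, 519 and 533 in GDM-HFS (0.46 ± 0.17); GDM-HFS 1 lay just above GDM-LF 1. Ech1, another auxiliary enzyme, was at 1263, 981 and 815 in GDM-LF and 1131, 1542 and 1425 in GDM-HFS (0.43 ± 0.20), and Cpt1a, the carnitine transferase that admits fatty acids, at 451, 379 and 266 in GDM-LF and 496, 472 and 412 in GDM-HFS (0.36 ± 0.17), both with overlap. GDM-LF 3 had the lowest values of all 6 libraries in each of these genes. The library medians of the list were 0.15, -0.01 and -0.34 in GDM-LF and -0.11, 0.20 and 0.13 in GDM-HFS, and without GDM-LF 3 the median difference was -0.025, so the sign rests on that library. In offspring of Lean dams the median was -0.10, or 0.092 without Lean-HFS 2.

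The PPAR list, which holds the receptors, their partners and coregulators beside target genes, had a median of 0.16, with 21 of 30 higher and 2 at an unadjusted p under 0.05 (2.87% of all genes). These were Nrip1, a corepressor of metabolic genes, at 281, 272 and 303 in GDM-LF and 355, 334 and 315 in GDM-HFS (0.23 ± 0.08) and Pparg, the receptor of the adipocyte program, at 161, 135 and 146 in GDM-LF and 149, 241 and 218 in GDM-HFS (0.43 ± 0.18). Angptl4, a secreted inhibitor of lipoprotein lipase and a PPAR target, was at 23.1, 16.4 and 9.61 in GDM-LF and 33.4, 29.2 and 32.3 in GDM-HFS. All GDM-HFS libraries lay above all GDM-LF libraries, yet the error was wide (1.04 ± 0.53, limma unadjusted p = 0.0719); the difference was 1.08 in offspring of Lean dams. Pdk4, which switches off pyruvate dehydrogenase, ran over a wide range within GDM-LF at 2017, 1344 and 273 in GDM-LF and 869.9, 1229 and 1396 in GDM-HFS, lowest in GDM-LF 3 (0.34 ± 0.58, or -0.53 without GDM-LF 3; 1.16 in offspring of Lean dams). Gpihbp1, which carries lipoprotein lipase to the capillary surface, was at 60, 29.3 and 17.2 in GDM-LF and 49.9, 75.99 and 66.1 in GDM-HFS (1.02 ± 0.38), and 1.42 in offspring of Lean dams, but GDM-LF 1 overlapped the GDM-HFS libraries.

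Glucose genes were more often lower. Of 35 tested genes of glucose uptake, glycolysis and glycogen, 26 had a negative difference, with a median of -0.06. At an unadjusted p under 0.05, 3 were lower, and 8 were lower without overlap between the groups. The shares of all genes in these 3 classes were 48.7%, 2.7% and 5.75%. Slc2a4 encodes GLUT4, the glucose transporter that insulin brings to the cell surface. It was at 1087, 1055 and 923 in GDM-LF and 679, 723 and 790.3 in GDM-HFS, separated by group (-0.48 ± 0.15, limma unadjusted p = 0.00648), with a like difference of -0.45 ± 0.15 in offspring of Lean dams. Eno3, the muscle enolase, was at 945, 952 and 879 in GDM-LF and 641, 692 and 762 in GDM-HFS (-0.41 ± 0.15; -0.52 in offspring of Lean dams). Ppp1r3c, which targets a phosphatase to glycogen, was at 728, 755 and 561 in GDM-LF and 509.9, 446 and 556 in GDM-HFS (-0.43 ± 0.14), with -0.05 in offspring of Lean dams.

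Pyruvate dehydrogenase and citric acid cycle genes were negative in 27 of 32, with a median of -0.08. Mpc1, a subunit of the carrier that brings pyruvate into mitochondria, was at 1062, 1021 and 866 in GDM-LF and 743, 746 and 878 in GDM-HFS (-0.32 ± 0.09), with GDM-HFS 3 just above GDM-LF 3. Bdh1, which starts the use of the ketone body beta-hydroxybutyrate, was at 162, 211 and 148 in GDM-LF and 58.9, 149 and 76.2 in GDM-HFS. Its difference was -0.97 ± 0.29 (limma unadjusted p = 0.00485), and -0.75 in offspring of Lean dams; GDM-HFS 2 overlapped GDM-LF. Branched-chain amino acid breakdown was negative in 13 of 18 (median -0.09; -0.25 in offspring of Lean dams, or -0.13 without Lean-HFS 2, with 9 lower at an unadjusted p under 0.05 there and 1 here). Of all genes, 2.56% were lower at that p in offspring of Lean dams and 2.7% in offspring of GDM dams. In insulin signalling Irs2, a docking protein of the insulin receptor, differed by 0.46 ± 0.18 and Foxo3, a transcription factor that insulin restrains, by 0.43 ± 0.17, both with overlap.

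Genes of the contractile apparatus and its chaperones were next. Of 35 sarcomere and Z-disc genes 25 had a negative difference (median -0.12). Flnc, filamin C of the Z-disc, was at 2169.6, 2345 and 2119.7 in GDM-LF and 1753, 1895 and 1885 in GDM-HFS, separated by group (-0.26 ± 0.10). Of 42 heat shock and unfolded protein genes, 5 were lower at an unadjusted p under 0.05 (2.7% of all genes) and 0 higher (2.87%); Cryab and Dnajb5 are above, and Hspb8, a small heat shock protein that clears damaged filamin with Bag3, was at 1123, 1198 and 1010.2 in GDM-LF and 881, 928 and 936 in GDM-HFS (-0.28 ± 0.09). The list's median was -0.05, so most members differed little. Of 27 tested hypertrophy and stress genes 16 had a negative and 11 a positive difference, with a median of -0.036. At an unadjusted p under 0.05, 0 were lower and 0 higher. Without overlap between the groups, 3 were higher and 3 lower (5.61% and 5.75% of all genes). The largest positive difference was that of Nppa (1.29), described below with the atrial genes. Myh7, the slow myosin heavy chain that marks hypertrophy in rodents, was at 13305, 20129 and 24228 in GDM-LF and 12931, 12787 and 13057 in GDM-HFS. All GDM-HFS libraries were below GDM-LF, but GDM-LF spread widely (-0.53 ± 0.39, limma unadjusted p = 0.196). Ankrd1, a stretch-responsive gene, was at 8140.2, 11706 and 8747 in GDM-LF and 6973, 6984 and 7858 in GDM-HFS (-0.37 ± 0.18; interaction -0.49 ± 0.25), and Acta1, skeletal actin of the fetal program, at 1701, 2519.7 and 1135 in GDM-LF and 586, 1224 and 1045 in GDM-HFS (-0.90 ± 0.46; interaction -1.49 ± 0.65, limma unadjusted p = 0.039).

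Calcium genes had a median of 0.10, with 27 of 37 higher and 5 at an unadjusted p under 0.05, where 51.3% and 2.87% of all genes were. In offspring of Lean dams 22 of 37 were lower, with a median of -0.065, and Lean-HFS 2 had the lowest list score, -0.32. The list shares Sln and Cacna2d2 with the atrial list described below, and their part was not tested. Itpr1, a calcium release channel of the endoplasmic reticulum, was at 669, 664 and 842 in GDM-LF and 1026, 899.6 and 869 in GDM-HFS (0.37 ± 0.11). Camk2b, a calcium-dependent kinase, was at 5.83, 6.03 and 10.6 in GDM-LF and 11.3, 14.03 and 20.03 in GDM-HFS (1.02 ± 0.30) and Atp2b4, a calcium pump of the plasma membrane, at 90.8, 104 and 105 in GDM-LF and 117, 124 and 129.8 in GDM-HFS (0.31 ± 0.10). These 3 genes were separated by group. Ryr2, the main release channel, was at 25623, 25129 and 25973 in GDM-LF and 27559, 27466 and 24049 in GDM-HFS, with a difference of 0.04 ± 0.17. Of the ion channels, Kcnj11, the pore of the ATP-sensitive potassium channel, was at 348, 388 and 366 in GDM-LF and 275, 299 and 304 in GDM-HFS, separated and lower (-0.33 ± 0.09; -0.30 in offspring of Lean dams).

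Smooth muscle genes had the largest median difference of the 16 cell type marker lists. Of 15 listed genes, all tested, 12 were higher in GDM-HFS, 8 at an unadjusted p under 0.05 and 3 without overlap, where 51.3%, 2.87% and 5.61% of all genes were, with a median of 0.94. The summed level of the list, which also holds abundant cardiomyocyte genes such as Pln and Des, was 22700.1 to 26465 in GDM-LF and 21490.5 to 26240.0 in GDM-HFS. In offspring of Lean dams the median was 0.02 (-0.058 to 0.21 without 1 Lean library). A positive interaction at an unadjusted p under 0.05 was found in 2 members and in 1.38% of all genes. Myh11, the smooth muscle myosin heavy chain, was at 369, 484 and 363 in GDM-LF and 502, 817 and 1206 in GDM-HFS (0.98 ± 0.25, limma unadjusted p = 0.00151; interaction 0.96 ± 0.35, unadjusted p = 0.0161). Cnn1, the actin-binding protein calponin, was at 6.32, 18.5 and 5.49 in GDM-LF and 19.8, 50.3 and 83.7 in GDM-HFS (2.32 ± 0.56; interaction 2.36 ± 0.79, limma unadjusted p = 0.00991). GDM-HFS 3 was highest, GDM-HFS 2 next, and GDM-HFS 1 just above GDM-LF 2.

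Acta2, smooth muscle actin, was at 169.8, 286 and 175 in GDM-LF and 249.9, 569.6 and 769 in GDM-HFS (1.23 ± 0.35), and Tagln, transgelin, at 78.2, 159.7 and 99.1 in GDM-LF and 145, 291 and 389.5 in GDM-HFS (1.24 ± 0.36). In both, GDM-HFS 1 lay below GDM-LF 2. Itga8, an integrin subunit, was at 44.7, 78.3 and 47.3 in GDM-LF and 52.04, 190.2 and 324 in GDM-HFS (1.42 ± 0.51), Lmod1, leiomodin of smooth muscle, at 40.1, 57.03 and 46.1 in GDM-LF and 55.5, 91.2 and 147 in GDM-HFS (0.94 ± 0.31), and Actg2, the actin of gut and vessel muscle, at 8.502, 19.8 and 9.61 in GDM-LF and 19.8, 35.3 and 39.4 in GDM-HFS (1.35 ± 0.44). Kcnmb1, a potassium channel subunit of vessel muscle, shares its locus with another model and is uncertain (1.41 ± 0.47). The high values came from GDM-HFS 2 and 3 throughout, and without GDM-HFS 3 the list's median was 0.59, without GDM-HFS 1 it was 1.29. The 7 other members, Smtn, Mylk, Pln, Des, Casq2, Synpo2 and Myocd, did not have an unadjusted p under 0.05. Cardiomyocytes also make Pln, Des, Casq2, Synpo2 and Myocd, and the part of that source was not tested. Des, the intermediate filament desmin, was at 5973, 6029 and 5018 in GDM-LF and 4285, 5328 and 5128 in GDM-HFS (-0.21 ± 0.11).

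Markers of pericytes, the cells that wrap capillaries, were more often lower. Of the 12 listed genes 8 were negative and 4 positive, with a median of -0.08, where 48.7% of all genes were negative. At an unadjusted p under 0.05, 3 were lower (2.7% of all genes) and 0 higher. Kcnj8, the pore of the pericyte potassium channel, was at 68.01, 82.2 and 71.02 in GDM-LF and 56.7, 53.2 and 59.04 in GDM-HFS (-0.39 ± 0.11), Vtn, the matrix protein vitronectin, at 108, 102 and 95.7 in GDM-LF and 71.99, 75.6 and 87.4 in GDM-HFS (-0.38 ± 0.14), and Rgs5, a G protein regulator, at 489, 501 and 444 in GDM-LF and 386, 401 and 403 in GDM-HFS (-0.27 ± 0.12). The groups did not overlap in these 3 genes, where 5.75% of all genes were lower in this way. Atrial and adipocyte genes, described below, were also uneven between these libraries, and their part in the smooth muscle values was not tested.

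**Figure D4:**
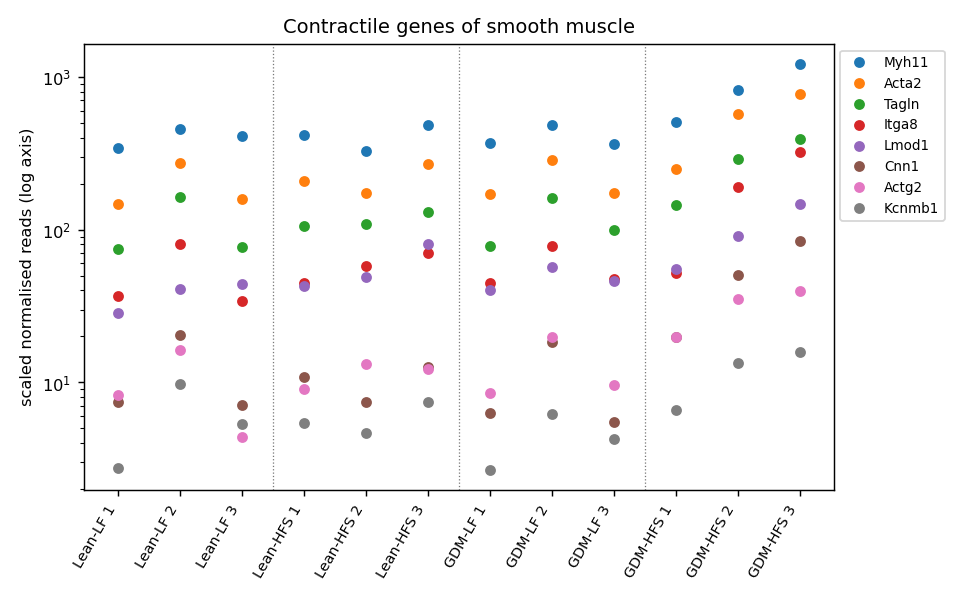
Scaled normalised reads (log axis) of the 8 smooth muscle genes with an unadjusted p under 0.05, 1 point per gene and library, in all 12 libraries grouped by dam and diet. GDM-HFS 2 and 3 are the highest of the GDM libraries in each of the 8 genes, for example Myh11 at 817 and 1206 against 363 to 484 in GDM-LF.

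Endothelial markers were mostly lower in GDM-HFS. Of 25 listed genes, all tested, 20 had a negative difference, 6 at an unadjusted p under 0.05 and 3 without overlap, where 48.7%, 2.7% and 5.75% of all genes did. The list's median was -0.14. In offspring of Lean dams 20 of 25 were positive, where 51.1% of all genes were, with a median of 0.12 (0.068 without Lean-HFS 2), and 4 members had a negative interaction at an unadjusted p under 0.05, where 1.63% of all genes did. Tie1, a receptor kinase of vessels, was at 294, 283 and 262 in GDM-LF and 206, 231 and 231 in GDM-HFS, separated by group (-0.33 ± 0.09; interaction -0.37 ± 0.13, limma unadjusted p = 0.0136). Cdh5, the cadherin of endothelial junctions, was at 638, 711 and 555 in GDM-LF and 541, 518 and 513 in GDM-HFS, also separated (-0.27 ± 0.10). Pecam1, the junction protein CD31, was at 578, 518 and 448 in GDM-LF and 441, 436 and 457 in GDM-HFS (-0.20 ± 0.09; interaction -0.45 ± 0.13, limma unadjusted p = 0.00353).

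Aplnr, the apelin receptor, was at 258, 297 and 318 in GDM-LF and 256, 184 and 136 in GDM-HFS (-0.64 ± 0.19) and Aqp1, the water channel of capillaries and red cells, at 1644, 1596 and 1069 in GDM-LF and 970.5, 813 and 1088 in GDM-HFS (-0.57 ± 0.17); GDM-LF 3 overlapped the GDM-HFS libraries in Aqp1. The list's median was -0.25 without GDM-LF 3 and -0.046 with values as deposited, against 0.10 over all genes. Vwf, the clotting factor of larger vessels, went the other way at 543, 581 and 772 in GDM-LF and 810.4, 750.0 and 745 in GDM-HFS (0.30 ± 0.17). Its GDM-LF 3 value lay among the GDM-HFS values. The summed level of the list was 9102 to 11185 in GDM-LF and 9077 to 9852 in GDM-HFS. Col4a1, a basement membrane collagen, was at 2295, 2675 and 2098 in GDM-LF and 1834, 1983 and 2069.7 in GDM-HFS, lower in every GDM-HFS library (-0.26 ± 0.11), while Col18a1, the precursor of endostatin, was at 103, 135 and 142 in GDM-LF and 163, 178 and 203 in GDM-HFS, higher in every one (0.52 ± 0.14).

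Immediate early genes, which cells induce within minutes of a stimulus and many of which encode transcription factors, were mostly higher in GDM-HFS. Of 27 listed, all tested, 22 had a positive difference, 6 at an unadjusted p under 0.05 and 3 without overlap, where 51.3%, 2.87% and 5.61% of all genes did. In 1 member the groups were separate in the other direction. The list's median was 0.17 (0.10 in offspring of Lean dams, or -0.065 without Lean-HFS 2). Egr1, a zinc finger factor, was at 22.8, 24.3 and 40.3 in GDM-LF and 46.6, 50.9 and 47.4 in GDM-HFS (0.77 ± 0.24), separated by group. Nr4a1, an orphan nuclear receptor, was at 17.97, 37.2 and 25.4 in GDM-LF and 34.4, 47.5 and 54.04 in GDM-HFS (0.79 ± 0.25), with GDM-HFS 1 below GDM-LF 2. Egr3 was at the low end of detection, at 0.486, 0.43 and 0.343 in GDM-LF and 2.16, 2.53 and 2.71 in GDM-HFS (2.31 ± 0.70). The library medians, -0.08, -0.04 and -0.17 in GDM-LF and -0.05, 0.13 and 0.24 in GDM-HFS, put GDM-HFS 2 and 3 above the other 4 libraries, and without GDM-HFS 1 the median difference was 0.28. The time from death to freezing and the time of day are not given in the labels.

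Serum response factor binds the CArG box, and immediate early and smooth muscle contractile genes are its best known targets, so the promoters of both lists were searched for it. The CArG box occurred in 1.64% of the 33469 RefSeq windows (GRCr8, both strands, since it reads as the same motif on either). Counted by gene, it occurred in 4 of 17 immediate early genes with a window (Egr1, Egr2, Klf6 and Zfp36) and in 0 of 11 smooth muscle genes. The latter says only that these letters are not in this window. The stretches below are 90 bases each, 5′ to 3′ in the direction of the gene, from chr18:26736944-26737033 (plus strand) for Egr1 and chr1:92799109-92799198 (minus strand) for Zfp36, with CArG boxes in capitals.
Egr1: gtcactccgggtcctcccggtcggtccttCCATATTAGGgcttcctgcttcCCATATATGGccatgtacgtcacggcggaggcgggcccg
Zfp36: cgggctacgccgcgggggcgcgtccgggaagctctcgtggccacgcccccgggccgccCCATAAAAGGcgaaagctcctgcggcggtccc
Egr1, with the higher values in all 3 GDM-HFS libraries, has 2 matches in its window, and Zfp36, a factor that destabilises mRNA, has 1.

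Clock genes form transcription feedback loops whose levels swing over the day. Of 20 tested, 11 were higher and 9 lower in GDM-HFS, where 51.3% and 48.7% of all genes were, with a median of 0.05. At an unadjusted p under 0.05, 2 were higher and 0 lower (2.87% and 2.7% of all genes). Without overlap between the groups, 2 were higher and 3 lower (5.61% and 5.75%). The genes below are the leading members by p. Per3, a repressor arm gene, was at 83.1, 71.2 and 67.9 in GDM-LF and 158, 91.8 and 104 in GDM-HFS, separated by group (0.63 ± 0.29), and Per1 at 184, 189 and 128 in GDM-LF and 156, 269 and 259 in GDM-HFS with overlap (0.43 ± 0.20). Arntl, the activator of the loop, was at 207, 216 and 198 in GDM-LF and 132, 175 and 136 in GDM-HFS, lower in every GDM-HFS library (-0.50 ± 0.23). In offspring of Lean dams these differences were -0.16, -0.08 and 0.06, and the interaction p was above 0.05 for each. Of 25 tested genes of the glucocorticoid list 18 were higher and 7 lower, with a median of 0.11. At an unadjusted p under 0.05, 2 were higher and 1 lower. Zbtb16, a glucocorticoid target, was at 1311, 1414 and 1095 in GDM-LF and 1109, 2667 and 2668 in GDM-HFS. GDM-HFS 2 and 3 were nearly level, and GDM-HFS 1 lay among the GDM-LF libraries (0.65 ± 0.30).

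Among immune genes, Ifit1, an interferon-induced protein that binds viral RNA, was at 39.4, 37.9 and 31.2 in GDM-LF and 3.33, 2.73 and 2.29 in GDM-HFS, with 31.2 the lowest in GDM-LF and 3.33 the highest in GDM-HFS (-3.66 ± 1.06, limma unadjusted p = 0.00397, adjusted p = 0.761). Limma fitted on these 2 groups alone called it (adjusted p = 0.00105). The Lean libraries, left out of that fit, were at 0.832, 3.84 and 22.0 in Lean-LF and 2.86, 1.28 and 31.1 in Lean-HFS, a wider spread within each group. Of 39 interferon genes 25 were lower and 14 higher, with a median of -0.08 that ran from -0.19 to -0.0014 when 1 GDM library was left out. The library medians overlapped, at -0.21, 0.31 and 0.05 in GDM-LF and 0.04, -0.03 and -0.10 in GDM-HFS. At an unadjusted p under 0.05, 6 members were lower (2.7% of all genes) and 0 higher, among them Bst2, which tethers budding virus, at 138, 134 and 111 in GDM-LF and 87.8, 86.7 and 107 in GDM-HFS (-0.45 ± 0.13), and Rsad2, viperin, at 62.7, 60.5 and 52.5 in GDM-LF and 48.5, 34.3 and 40.7 in GDM-HFS (-0.52 ± 0.18). Antigen presentation genes were lower in 14 of 25 and higher in 11, where 48.7% and 51.3% of all genes were. At an unadjusted p under 0.05, 3 were lower and 2 higher (2.7% and 2.87% of all genes). Cd74, the chaperone of MHC class II, was at 999.8, 1009.6 and 1023 in GDM-LF and 773, 842 and 878 in GDM-HFS, separated by group (-0.28 ± 0.08). Macrophage markers were negative in 13 of 19, 0 at an unadjusted p under 0.05, where 48.7% and 2.7% of all genes were. Their median was -0.09, with a summed level of 1092 to 1256 in GDM-LF and 984 to 1152 in GDM-HFS. Mast cell genes went both ways: the histidine decarboxylase gene Hdc was at 0.243, 0.43 and 0.858 in GDM-LF and 3.33, 2.73 and 2.09 in GDM-HFS (2.31 ± 0.66) and the carboxypeptidase Cpa3 at 8.502, 10.98 and 10.5 in GDM-LF and 7.15, 7.01 and 4.798 in GDM-HFS (-0.66 ± 0.24).

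Atrial genes were higher in GDM-HFS on average, but single libraries set the level. All 21 tested genes of 22 listed had a positive difference, with a median of 0.46. At an unadjusted p under 0.05, 1 was higher, and in 0 were the groups separate. The shares of all genes higher in these ways were 51.3%, 2.87% and 5.61%. Myl7, the atrial light chain, was at 55.1, 539 and 2218 in GDM-LF and 3816, 1144 and 834 in GDM-HFS (1.93 ± 0.93), and Nppa, atrial natriuretic peptide, at 357, 2770.4 and 6717 in GDM-LF and 10960.0, 3061 and 2909 in GDM-HFS (1.29 ± 0.86). GDM-LF 1 was lowest, GDM-HFS 1 highest, and GDM-LF 3 above GDM-HFS 2 and 3. The summed level was 9155 to 24676 in GDM-LF and 16419.7 to 38106 in GDM-HFS, and the median was 0.21 without GDM-LF 1 and 0.25 without GDM-HFS 1. Ventricular markers were negative in 10 of 11, with Irx4, a ventricle-specific factor, at 68.98, 61.6 and 67.8 in GDM-LF and 48.4, 38.97 and 51.5 in GDM-HFS, separated by group (-0.52 ± 0.16), and Myl2, the ventricular light chain, at 5393, 5026 and 3830.4 in GDM-LF and 2995, 4172 and 3904 in GDM-HFS (-0.36 ± 0.14). The share of atrium in each heart sample is not given in the labels, and its part in the other differences was not tested.

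Adipocyte genes also varied more within groups than between them. Of 19 tested white adipocyte markers 15 were higher in GDM-HFS, 2 at an unadjusted p under 0.05 and 0 without overlap, where 51.3%, 2.87% and 5.61% of all genes were. The summed level, mostly lipoprotein lipase that cardiomyocytes also make, was 9527 to 13201 in GDM-LF and 9509.6 to 11703 in GDM-HFS. Adipoq, the adipocyte hormone adiponectin, was at 1.21, 0.43 and 17.5 in GDM-LF and 5.99, 9.74 and 27.7 in GDM-HFS (2.36 ± 1.17) and Plin1, which coats adipocyte lipid droplets, at 1.46, 1.08 and 9.09 in GDM-LF and 3.33, 5.07 and 46.1 in GDM-HFS (1.87 ± 0.98). GDM-HFS 3 was highest and GDM-LF 3 was above GDM-HFS 1 and 2 in both genes. Ucp1, the uncoupling protein of brown fat, was listed at 0 in 3 of the 6 libraries and at 37.97 in GDM-HFS 3. Erythroid transcripts were negative in 13 of 16, 6 at an unadjusted p under 0.05, where 48.7% and 2.7% of all genes were. Hbb, beta-globin, was at 1133, 1052 and 1136 in GDM-LF and 906, 471 and 841 in GDM-HFS, lowest in GDM-HFS 2 (-0.64 ± 0.23). The labels give blood drawing from the heart and a rinse before freezing.

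**Figure D5:**
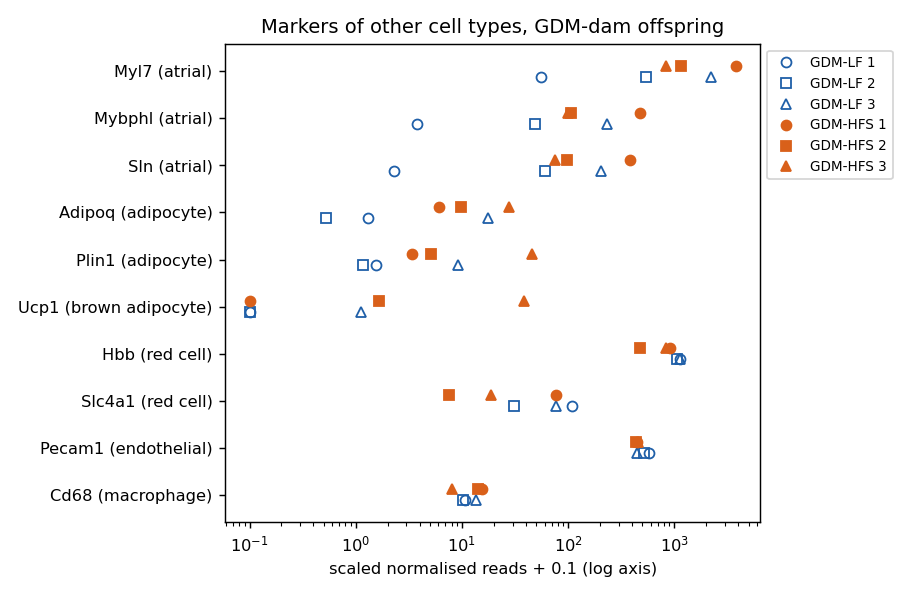
Scaled normalised reads + 0.1 (log axis) of markers of atrium, fat, red cells, endothelium and macrophages in each of the 6 libraries (open blue GDM-LF, filled orange GDM-HFS, shape for the replicate number). Atrial genes are lowest in GDM-LF 1 and highest in GDM-HFS 1, and fat genes are highest in GDM-HFS 3, while Pecam1 stays between 436 and 578.

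The last question was whether the diet contrast depended on the dam. The test of that difference called 0 of 12983 genes (0%) and gave 391 (3.01%) at an unadjusted p under 0.05. The diet contrast in offspring of Lean dams also called 0 genes (0%), with 676 (5.21%) at an unadjusted p under 0.05. Across genes the 2 diet contrasts had a Pearson r of 0.129, a description over 12983 genes that are not independent. Among genes without overlap between GDM-HFS and GDM-LF libraries, no uncertain model and a mean level of 5 or more, the negative interactions with the smallest p were those of Tmem179, Pola2 and Gtf2h4. Pola2, a subunit of DNA polymerase alpha, was at 91.6, 135 and 116 in GDM-LF and 62.02, 66.4 and 88.7 in GDM-HFS (-0.66 ± 0.21), against 0.44 in offspring of Lean dams (interaction -1.10 ± 0.30, limma unadjusted p = 0.00291).

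Under the same limits the positive interactions with the smallest p were those of Ephx2, Ppp1r14a and Kcna4. Ephx2, the soluble hydrolase that breaks down fatty acid epoxides, was at 57.1, 99.7 and 83.5 in GDM-LF and 103, 115 and 115 in GDM-HFS (0.51 ± 0.22), against -0.73 in offspring of Lean dams (interaction 1.24 ± 0.31, limma unadjusted p = 0.00145). Ppp1r14a, an inhibitor of the myosin phosphatase of smooth muscle, was at 12.4, 9.69 and 10.6 in GDM-LF and 15.8, 20.7 and 21.3 in GDM-HFS (0.81 ± 0.22), against -0.39 (interaction 1.20 ± 0.31). Kcna4, a channel of the transient outward potassium current, was at 18.9, 18.1 and 28.99 in GDM-LF and 32.8, 33.1 and 34.01 in GDM-HFS (0.63 ± 0.19), against -0.38 (interaction 1.01 ± 0.27). In these 3 genes GDM-HFS lay wholly above GDM-LF, which their selection required.

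Genes that differ between hearts of GDM and Lean offspring in earlier results of these data were examined next for the post-weaning diet. Of 8 such genes 0 had an unadjusted p under 0.05, where 5.57% of all genes did, so so few genes cannot be told from that share. Kctd16, which attaches to GABA-B receptors, was at 112, 82.6 and 89.2 in GDM-LF and 57.5, 90.4 and 116 in GDM-HFS (-0.15 ± 0.42, or 0.12 without GDM-HFS 1), Marcksl1, an actin-binding kinase substrate, at 40.8, 29.5 and 31.9 in GDM-LF and 20.9, 30.01 and 31.1 in GDM-HFS (-0.32 ± 0.25), and Rpl30 at 96.7, 75.8 and 71.9 in GDM-LF and 111, 65.7 and 58.8 in GDM-HFS (-0.10 ± 0.20, or 0.080 without GDM-HFS 3). Cyp4f18, a lipid-hydroxylating cytochrome P450, was at 15.5, 12.5 and 13.7 in GDM-LF and 12.3, 15.98 and 16.7 in GDM-HFS (0.10 ± 0.28), whereas the Lean contrast was 1.62 ± 0.28 (interaction -1.52 ± 0.40, limma unadjusted p = 0.00212). The gene was listed for a difference between GDM and Lean offspring in these same data. That interaction p is therefore not independent of the choice, and the interaction test called 0 genes after adjustment. Groups overlapped in all 8 genes. Of all genes, 5.61% were without overlap and higher in GDM-HFS, and 5.75% without overlap and lower.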

How the data were processed

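RNA from whole rat hearts was depleted of ribosomal RNA, made into directional libraries and read as 100 bp pairs, per the labels' protocols. Reads were aligned with STAR 2.5.1b to Rnor_6.0, per the labels, and the submitters' processing notes list HOMER 4.9, edgeR, FastQC and Trim Galore too, without their roles. The deposited values carry FPKM in their name, but each library's values are whole multiples of 1 step (0.184 to 0.262) and are not divided by length, so the unit used is the deposited normalised read signal. Values divided by that step were whole to within 0.1 read in 100% of cases. The sources used here do not state the rule that gave reads to models. Even read numbers made up 67.8 to 73.6% of those from 1 to 40. Of the tested models 1374 (10.6%) overlap another, and 1005 (7.74%) share at least 25% of their value with it; these are named as uncertain.

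Each library was scaled by its median-of-ratios factor (0.886 to 1.15). Genes with a mean of at least 0.5 over 12 libraries (12983 of 17322) were tested with limma 3.58.1 (R 4.3.3) after taking log2(scaled value + 0.1), as 4 group means on 8 residual degrees of freedom, letting the variance follow the mean level. P-values are two-sided and were adjusted by Benjamini-Hochberg across the tested genes of a contrast, and 0.05 was the threshold. Log2 differences carry limma's standard error, and folds of low genes are understated. The test was planned for FPKM and kept for the signal, with edgeR 4.0.16 and DESeq2 1.42.0 on recovered reads as alternatives. The procedure was tested on simulated data. Members, the 51 gene lists and the rules were chosen with earlier results of these data known. Genes named are the 12 per direction with the smallest p, no overlap between groups, a mean of at least 5 and no uncertain model, the 3 leading members by p of each list described, members of a fixed cardiac panel and of the genes called in earlier results, defining cell type markers, and, under the same limits as the first, the 3 interactions per direction with the smallest p. In the main test the replicate numbers were not used to pair the samples.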

Additional observations from a re-analysis of the deposited data

How the results depend on the processing

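The count of genes called by limma between GDM-HFS and GDM-LF was 0, and 9 with DESeq2, 1 with only the 2 groups compared, 1 without Lean-HFS 1 and 1 with the replicate block; over fits that leave out 1 library it was 0 to 1. Same-numbered libraries had correlations of deviations of -0.077, 0.085 and -0.098, and only GDM-LF 2 correlated best with its own number. With 3 libraries a group, these correlations cannot decide whether same-numbered libraries share a litter or a batch. Genes at an unadjusted p under 0.05 numbered 247 to 747 higher and 226 to 548 lower when 1 library was left out, and with values as deposited 522 were higher and 100 lower. The Lean diet contrast called 0 to 3 genes without 1 library (3 without Lean-LF 3), and the interaction 0. Leaving out 1 GDM library gave medians of -0.26 to -0.13 for complex I, -0.26 to -0.14 for complexes II to V, -0.17 to -0.11 for the cytosolic ribosome, -0.025 to 0.22 for fatty acid oxidation, 0.59 to 1.29 for smooth muscle, 0.21 to 0.65 for atrial, -0.25 to -0.096 for endothelial and 0.12 to 0.28 for immediate early genes. Values as deposited moved the ribosomal median to -0.040 and the endothelial one to -0.046. Single genes changed sign in some fits: Pdk4 was at -0.063 with edgeR, -0.056 with DESeq2 and -0.53 to 0.92 without 1 library, Rpl30 at -0.38 to 0.080 and Kctd16 at -0.38 to 0.12 without 1 library, Atp2a2 at 0.067 with values as deposited and Mb at 0.071 with quantile normalization. With 3 libraries a group and a median standard error of 0.163, small differences in single genes were not detectable.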

Other observations

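Proliferation and protein turnover genes gave small differences between GDM-HFS and GDM-LF hearts, none past an adjusted p under 0.05. Of 38 tested cell cycle genes 30 had a negative difference and 2 were lower at an unadjusted p under 0.05, where 48.7% and 2.7% of all genes were. The median was -0.26, next to 0.02 in offspring of Lean dams. Mki67, the proliferation antigen Ki-67, was at 51.5, 70.6 and 75.6 in GDM-LF and 66.2, 37.02 and 37.8 in GDM-HFS (-0.52 ± 0.22); GDM-HFS 1 lay among the GDM-LF libraries. The library medians of this list were 0.03, 0.16 and 0.19 in GDM-LF and 0.20, -0.20 and -0.24 in GDM-HFS, and with 1 library left out at a time the median difference ranged from -0.38 to -0.075. Cdkn2c, a kinase inhibitor of the cycle, was at 6.801, 7.75 and 6.18 in GDM-LF and 4.16, 4.48 and 4.798 in GDM-HFS, separated by group (-0.61 ± 0.28).

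Of 38 antioxidant genes 4 were lower at an unadjusted p under 0.05 (2.7% of all genes) and 0 higher (2.87%). The 4 were led by Prdx2, a peroxiredoxin abundant in red cells, at 665, 647 and 592 in GDM-LF and 533, 497 and 506 in GDM-HFS (-0.31 ± 0.09) and Txn2, the mitochondrial thioredoxin, at 424, 419.9 and 410.1 in GDM-LF and 367, 356 and 356 in GDM-HFS (-0.22 ± 0.07). Both were separated by group, and erythroid transcripts had the same sign; their part was not tested. Proteasome and autophagy genes were negative in 37 of 48 (median -0.09), with Psmb7 of the proteasome at 229, 231 and 199 in GDM-LF and 195, 182 and 188 in GDM-HFS (-0.22 ± 0.09), while Atg5 of the autophagy machinery was higher in every GDM-HFS library, at 90.1, 90.2 and 99.1 in GDM-LF and 102, 115 and 109 in GDM-HFS (0.22 ± 0.09). Among receptors, Ednrb, the endothelin B receptor, was at 79.9, 86.7 and 89.7 in GDM-LF and 106, 106 and 97.02 in GDM-HFS, higher in every GDM-HFS library (0.27 ± 0.10; 0.31 in offspring of Lean dams), and Npr1, the receptor of atrial natriuretic peptide, at 94.97, 109 and 90.6 in GDM-LF and 97.1, 59.04 and 72.8 in GDM-HFS with overlap (-0.39 ± 0.16). Imprinted growth genes were positive in 15 of 20 (51.3% of all genes). At an unadjusted p under 0.05, 2 were higher and 1 lower, where 2.87% and 2.7% of all genes were. Dlk1, a Notch ligand relative, was near the limit of detection at 0, 0 and 0.343 in GDM-LF and 0.333, 1.17 and 2.09 in GDM-HFS, too low for a fold, and Impact, a translation regulator, differed by 0.29 ± 0.13. Zim1, an imprinted zinc finger gene, was at 27.9, 28.6 and 28.1 in GDM-LF and 22.1, 13.1 and 20.03 in GDM-HFS, lower in every GDM-HFS library (-0.65 ± 0.24; -0.50 in offspring of Lean dams).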
